A study of Mus musculus with 19 samples.

Results

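Genes of the NF-κB pathway and of the inflammatory response it controls were followed in whole bone marrow of mice lacking the Mediator kinases CDK8, CDK19 or both. They are the 35 genes, of 34432 in the table, whose symbol is on a list of cytokines, chemokines, NF-κB subunits, their inhibitors and known target genes, and all 35 were found. The rule uses symbols, not measured values. Marrow was flushed from tibiae and femurs of untreated mice aged 8 weeks, and its polyadenylated RNA was sequenced. DKO mice (4 libraries) carried floxed Cdk8 (flox/flox), the Vav-iCre transgene and the Cdk19null allele. CDK8KO mice (4 libraries) carried floxed Cdk8 and Vav-iCre. CDK19KO mice (4 libraries) carried Cdk19null and no Cre. VAV mice (4 libraries) carried Vav-iCre alone, and WT mice (3 libraries) were C57/BL6 and carried none of these alleles. Vav directs the Cre recombinase mainly to blood cells, so marrow cells in which it is silent keep Cdk8, while Cdk19null is carried by all cells. DKO, CDK8KO and VAV share Cre, and their common control is VAV. Whether each library came from its own animal is not stated in the labels, and the p-values therefore reflect only how much these libraries varied, part of which could be technical.

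Libraries held 14881701 to 33010241 reads assigned to genes, and the 35 genes together took 0.11 to 0.15% of them. Cdk19 averaged 1173 ± 43.1 normalized counts in DKO and 1091 ± 62.5 in CDK19KO, against 3668 ± 524.5 in VAV and 3157 ± 99.7 in WT (SD, n = 4, 4, 4 and 3). Cdk8 averaged 798 ± 62.0 in DKO and 1013 ± 249 in CDK8KO, against 994 ± 230.1 in VAV (SD, n = 4 each). Since whole-gene counts cannot reveal a removed exon, the Cdk8 deletion is taken from the labels. Skeletal muscle transcripts were highest in CDK19KO replicate 4 (0.105% of reads) and DKO replicate 4 (0.0283%), and erythroid transcripts in CDK8KO replicate 1 (3.46%) and VAV replicate 3 (3.16%). Markers of monocytes and of late neutrophils, the main sources of many of these messengers in marrow, were present in all 19 libraries, at 0.176 to 0.556% and at 2.84 to 5.58% of reads. In bulk marrow, fewer cells of a type and less RNA per cell cannot be told apart.

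NF-κB is a family of dimeric transcription factors held in the cytoplasm by IκB proteins. Signals from Toll-like receptors, the interleukin-1 receptor or the tumour necrosis factor receptor activate a kinase that marks IκB for destruction, and the freed dimers enter the nucleus and switch on cytokines, chemokines and their own inhibitors, Nfkbia (IκBα) and Tnfaip3 (A20) among them. In marrow the response is known mainly from monocytes, macrophages and neutrophils. CDK8 and CDK19 are alternative kinases of the Mediator complex and are known as regulators of inducible transcription, including that driven by NF-κB.

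The κB element, the binding sequence of these factors, was searched on both strands in the 250 bases before the RefSeq starts (GRCm38.p6), where 28 of the 35 genes were matched. The letters searched were GGGRNNYYCC, where R is A or G, Y is C or T and N is any base. At least 1 match stood before 15 of the 28 genes (53.6%), against 8.23% of the 27025 genes with a promoter window. The genes were listed as pathway members and known targets, so their share is a property of the list and no result of these libraries. Genes can have several windows, and of all 32851 windows 7.25% held a match. The AP-1 element TGANTCA stood before 6 of the 28 (21.4%), against 7.82% of genes, and the letters TATAAA before 6 of 28 (21.4%), against 14.3%. None of the 4 genes whose level passed the test in any comparison below (Il1b, Il1rn, Ccl3 and Acod1) held the κB consensus in these windows. No match says only that these letters are not there. The last 200 bases before the start are shown for these 4 genes, and for Il6, Cxcl2 and Nfkbia as examples with a match. Capitals mark the κB matches, TGANTCA and TATAAA. The windows are chr2:129371140-129371339 (minus strand), chr2:24336660-24336859 (plus strand, the first of 3 starts listed), chr11:83649379-83649578 (minus), chr14:103046812-103047011 (plus), chr5:30012914-30013113 (plus), chr5:90903699-90903898 (plus) and chr12:55492648-55492847 (minus).
Il1b: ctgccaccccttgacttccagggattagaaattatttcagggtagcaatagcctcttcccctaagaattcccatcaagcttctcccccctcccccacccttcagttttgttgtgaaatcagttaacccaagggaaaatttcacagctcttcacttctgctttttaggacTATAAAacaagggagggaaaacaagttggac
Il1rn: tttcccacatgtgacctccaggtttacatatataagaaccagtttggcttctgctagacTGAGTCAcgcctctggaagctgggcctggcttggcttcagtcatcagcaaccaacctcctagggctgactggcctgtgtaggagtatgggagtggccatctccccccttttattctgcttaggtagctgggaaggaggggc
Ccl3: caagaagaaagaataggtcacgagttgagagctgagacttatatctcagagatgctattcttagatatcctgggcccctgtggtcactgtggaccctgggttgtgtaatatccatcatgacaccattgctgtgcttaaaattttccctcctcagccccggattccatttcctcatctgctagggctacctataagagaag
Acod1: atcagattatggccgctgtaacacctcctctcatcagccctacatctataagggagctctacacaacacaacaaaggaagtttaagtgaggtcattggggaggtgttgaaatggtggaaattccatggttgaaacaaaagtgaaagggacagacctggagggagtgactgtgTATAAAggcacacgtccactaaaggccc
Il6: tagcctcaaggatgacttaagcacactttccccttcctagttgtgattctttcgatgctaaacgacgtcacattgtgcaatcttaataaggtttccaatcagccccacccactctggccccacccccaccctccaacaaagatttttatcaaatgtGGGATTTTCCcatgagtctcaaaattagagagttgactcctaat
Cxcl2: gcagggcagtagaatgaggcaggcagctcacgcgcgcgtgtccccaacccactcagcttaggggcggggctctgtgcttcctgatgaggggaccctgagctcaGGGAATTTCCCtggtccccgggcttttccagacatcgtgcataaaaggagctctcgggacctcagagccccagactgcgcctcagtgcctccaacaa
Nfkbia: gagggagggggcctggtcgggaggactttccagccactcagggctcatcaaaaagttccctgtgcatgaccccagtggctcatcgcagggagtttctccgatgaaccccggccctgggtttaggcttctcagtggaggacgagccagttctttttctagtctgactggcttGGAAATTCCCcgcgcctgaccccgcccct
TATAAA begins 31 bases before the start of Il1b and 28 bases before that of Acod1, and TGAGTCA begins 141 bases before that of Il1rn. The window of Ccl3 held none of the searched elements. The κB match of Il6 begins 44 bases and that of Nfkbia 29 bases before the start, and Cxcl2 holds 2 overlapping matches that begin 97 and 96 bases before it.

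The levels of these genes were compared first across all genotypes. A filter on low values, which kept genes averaging 10 or more normalized counts across the 19 libraries, left 34 genes for testing. The exception was Cxcl3, a neutrophil-attracting chemokine, which had no read in any of the 4 DKO libraries, 0 to 4 reads in CDK8KO, 1 to 13 in CDK19KO, 0 or 1 in VAV and 3 to 10 in WT. In 18 of the 34 genes the highest genotype mean was at most 1.5 times the lowest, in 8 it was between 1.5 and 2 times, and in 8 more than 2 times. In reads per kilobase of exon per M reads, a scale on which levels of different genes can be compared, Nfkbia stood highest with a mean of 76.6 over all libraries, followed by Tnfaip2 with 28.9 and Birc3 with 25.4. Il1b (15.2) was close to the NF-κB subunit genes Rel (18.7) and Rela (12.4) on that scale. Il6 (0.561), Ptgs2 (0.452) and Traf1 (0.402) were the lowest of those tested. For each library 3 reads, the floor below which no level is read, correspond to 2.19 to 4.50 normalized counts. Single libraries carried many of the extremes: DKO replicate 4 was the highest library for 7 genes, and VAV replicate 1 and CDK8KO replicate 3 for 5 each. DKO replicate 4 also had the fewest reads (14881701) and was among the libraries rich in muscle transcripts. How often these libraries were highest over all genes was not counted.

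**Figure D1:**
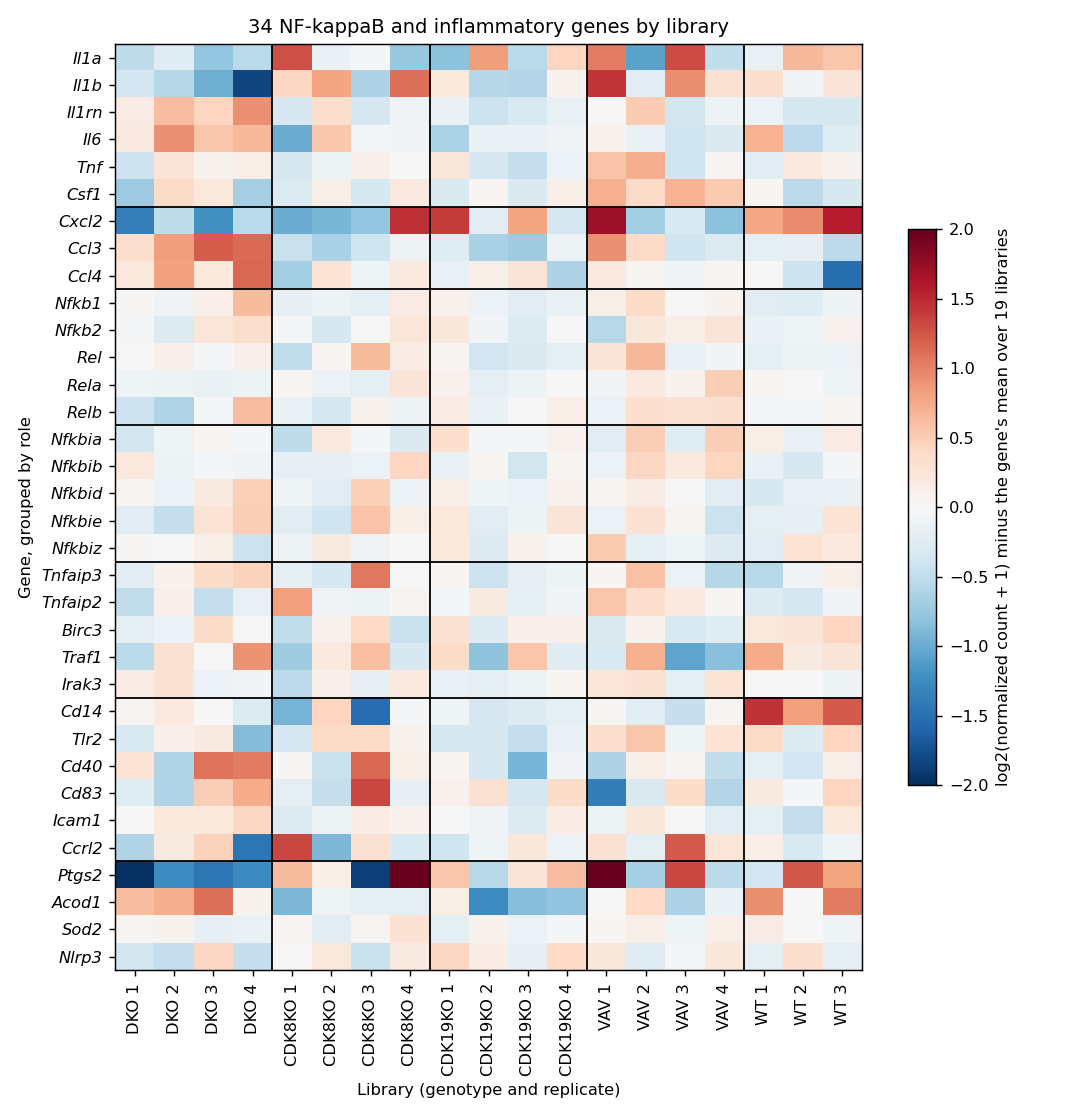
Level of the 34 tested genes (rows, grouped by role) in all 19 libraries (columns), as log2(normalized count + 1) minus the mean of the gene over the libraries; colours stop at 2 units in either direction. Il1b and Ptgs2 are low in the 4 DKO columns, Cd14 is highest in the 3 WT columns, and few cells of the NF-κB subunit and inhibitor rows are strongly coloured.

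Il1b, the gene of the fever-inducing cytokine interleukin-1β (ENSMUSG00000027398; mm10 chromosome 2, 129364570 to 129371139, minus strand), was lower in DKO than in VAV marrow. It had 441, 385, 291 and 159 normalized counts in DKO, against 1547, 489, 1095 and 697 in VAV. Every DKO library lay below every VAV library, and replicates 4 of DKO and 1 of VAV were the farthest apart. The means were 319 ± 123 in DKO and 957 ± 467 in VAV (SD, n = 4 each), so DKO held 33.3% of the VAV level. On the log2(normalized count + 1) scale the difference was -1.55 ± 0.38 (SE; limma adjusted p = 0.0474). It was the 1 gene of the 34 called in this comparison (2.94%), where 1.52% of all genes tested were called. Fold changes on this scale understate the change of low genes. The call ended without DKO replicate 2, 3 or 4 or without VAV replicate 1, 3 or 4 (limma adjusted p up to 0.176); without VAV replicate 1 the difference was -1.27 (limma adjusted p = 0.153). It also ended without the 2 muscle-rich libraries (log2 difference -1.25, limma adjusted p = 0.213) and without the 2 erythroid-rich ones (-1.44, limma adjusted p = 0.0766).

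In the single mutants Il1b was 759.7, 995, 371 and 1236 in CDK8KO, and 666, 386, 383 and 600.3 in CDK19KO, beside 718, 549 and 684 normalized counts in WT. The ranges of CDK8KO and VAV overlapped, as did those of CDK19KO and WT, and neither difference passed: -0.18 ± 0.38 for CDK8KO against VAV (SE; limma adjusted p = 0.884) and -0.39 ± 0.41 for CDK19KO against WT (SE; limma adjusted p = 1). Against CDK8KO the DKO level was -1.36 ± 0.38 (SE; limma adjusted p = 0.0816), and against CDK19KO -0.73 ± 0.38 (limma adjusted p = 0.369). Exons of Il1b overlap those of the antisense gene Il1bos by 25 bases. Exons of Icam1, Il1a, Irak3, Nfkb2, Nfkbib and Tnfaip2 also overlap genes on the opposite strand. Among these are Irak3 with Tmbim4 (122 bases) and Nfkbib with Sirt2 (42 bases). Whether the counting used strand is not given in the sources used here.

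Il1rn, the antagonist that occupies the interleukin-1 receptor without signalling (ENSMUSG00000026981; chromosome 2, 24336853 to 24351494, plus strand), was higher in DKO than in CDK19KO. Normalized counts were 2419, 3330.1, 2926 and 4095 in DKO, 1711, 2708, 1710.5 and 2062 in CDK8KO, 1972, 1614, 1754 and 1960.4 in CDK19KO, 2187, 3079, 1686 and 2013 in VAV, and 2001, 1726 and 1728 in WT. All DKO libraries were above all CDK19KO and WT libraries, while the ranges of DKO and VAV overlapped. The difference between DKO and CDK19KO was 0.78 ± 0.18 on the log2 scale (SE; limma adjusted p = 0.0304), with means of 3192 ± 708 in DKO and 1825 ± 173 in CDK19KO (SD, n = 4 each). It was 0.52 ± 0.18 against VAV (SE; limma adjusted p = 0.182) and 0.64 ± 0.18 against CDK8KO (limma adjusted p = 0.0863), neither of which passed. Leaving out DKO replicate 2, 3 or 4 or any CDK19KO library ended the call against CDK19KO, as did leaving out the muscle-rich libraries (limma adjusted p = 0.154).

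The other cytokines passed no test. Il6, the acute-phase cytokine, was low and had 33.2, 55.4, 43.2 and 46.5 normalized counts in DKO, 14.1, 42.4, 28.5 and 27.9 in CDK8KO, 18.3, 26.3, 26.2 and 27.5 in CDK19KO, 30.3, 26.3, 21.8 and 23.5 in VAV, and 47.2, 19.9 and 24.3 in WT. DKO lay above VAV and CDK19KO without overlap, while CDK8KO replicate 2 and WT replicate 1 were within its range. The log2 difference was 0.77 ± 0.33 against VAV (SE; limma adjusted p = 0.263), with means of 44.6 ± 9.17 in DKO and 25.5 ± 3.73 in VAV (SD, n = 4 each). Csf1, the growth factor of macrophages, had 238, 519, 461 and 249 in DKO, 328, 432, 316 and 451 in CDK8KO, 323, 406, 325 and 429 in CDK19KO, 648, 517, 641 and 571 in VAV, and 406, 277 and 316 normalized counts in WT. It was VAV that stood apart: all of its libraries were above those of CDK8KO, CDK19KO and WT, and the DKO libraries reached VAV only with replicate 2. The log2 differences of Csf1 were -0.78 ± 0.22 for DKO against VAV (SE; limma adjusted p = 0.108), -0.65 ± 0.22 for CDK8KO against VAV (limma adjusted p = 0.586) and 0.85 ± 0.24 for VAV against WT (limma adjusted p = 0.143). Without DKO replicate 2 the first of these passed (-0.97, limma adjusted p = 0.0328). Tnf, the archetypal activator of the pathway, ranged from 183 to 292 normalized counts in DKO and from 184 to 403 in VAV, and Il1a from 25.3 to 37.2 in DKO and from 20.4 to 109.8 in VAV.

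**Figure D2:**
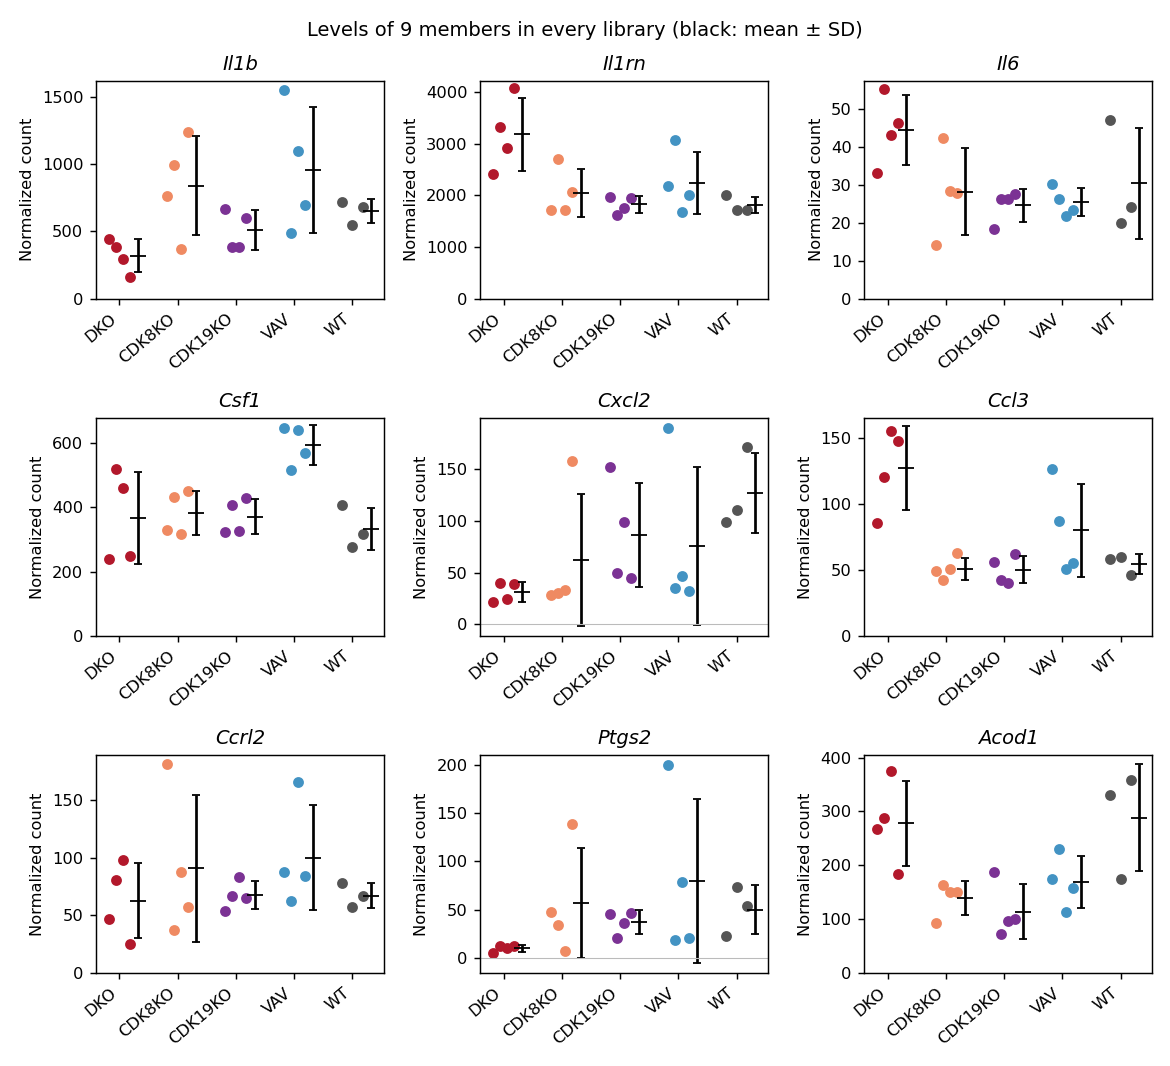
Normalized counts of 9 genes in every library (points), by genotype, with the mean and SD. On average Il1b and Ptgs2 are lowest and Ccl3 and Il1rn highest in DKO, and the Acod1 means of DKO and WT (278 and 288) are above those of the single mutants (139 and 114).

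Ccl3, the chemokine MIP-1α that attracts monocytes and other leukocytes (ENSMUSG00000000982; chromosome 11, 83647844 to 83649355, minus strand), was higher in DKO than in either single mutant. It had 85.5, 120.3, 156 and 148 normalized counts in DKO, 48.9, 42.4, 50.3 and 62.5 in CDK8KO, 56.1, 42.5, 40.3 and 62.0 in CDK19KO, 127, 87.5, 50.5 and 55.4 in VAV, and 58.4, 59.8 and 46.0 in WT. Each DKO library exceeded each CDK8KO, CDK19KO and WT library, and VAV replicates 1 and 2 lay within the DKO range. Means were 127.5 ± 31.9 in DKO, 51.1 ± 8.40 in CDK8KO and 50.2 ± 10.5 in CDK19KO (SD, n = 4 each).

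The log2 difference of Ccl3 was 1.28 ± 0.28 against CDK8KO (SE; limma adjusted p = 0.0226) and 1.31 ± 0.28 against CDK19KO (limma adjusted p = 0.0175). Against VAV it was 0.73 ± 0.28 (SE; limma adjusted p = 0.216), which did not pass. Both single mutants were compared with the same DKO libraries. Without DKO replicate 2, 3 or 4 neither call held (limma adjusted p from 0.0509 to 0.0766), and the call against CDK8KO also ended without CDK8KO replicate 1 or 2, that against CDK19KO without CDK19KO replicate 2 or 3. Both also ended without the muscle-rich libraries, where the differences were 1.19 and 1.34 (limma adjusted p = 0.0906 and 0.0832).

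The neighbouring chemokine gene Ccl4 (MIP-1β) had 18.9 to 37.5 normalized counts in DKO and 15.7 to 18.7 in VAV, without overlap, and its log2 difference of 0.54 ± 0.37 did not pass (SE; limma adjusted p = 0.499). Cxcl2, which attracts neutrophils, had 21.6, 39.8, 24.2 and 39.0 in DKO, 28.3, 30.0, 32.8 and 158 in CDK8KO, 152, 49.3, 99.3 and 44.8 in CDK19KO, 190.0, 35, 46.2 and 31.9 in VAV, and 98.8, 110.4 and 171 normalized counts in WT. In both CDK8KO and VAV, 3 of 4 libraries had at most 46.2 counts, and the mean rests on 1 high library each. The log2 difference of Cxcl2 in DKO was -0.88 ± 0.57 against VAV (SE; limma adjusted p = 0.474) and -1.31 ± 0.57 against CDK19KO (limma adjusted p = 0.279). Ccl3 with Ccl4 and Cxcl2 with Cxcl3 are related in sequence, and reads could be split between the members of a pair.

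Of the 5 subunits of NF-κB itself none passed in any comparison. In DKO against VAV their log2 differences ran from -0.32 (Relb) to 0.06 (Nfkb2), with a median of -0.13. Rela, the p65 subunit of the classical dimer, had 800.1, 788, 772 and 791 normalized counts in DKO, against 809, 975, 895 and 1196 in VAV. Chosen for this account after its values were seen, Rela varied little among the DKO libraries (mean 788 ± 11.9, SD, n = 4), all of which were below VAV (969 ± 166, SD, n = 4). The log2 difference of Rela was -0.28 ± 0.12 (SE; 95% confidence interval -0.54 to -0.03; limma adjusted p = 0.26). Nfkb1, which gives p50, averaged 3550 ± 845 in DKO and 3413 ± 401 in VAV (SD, n = 4 each), with a 95% interval of -0.25 to 0.32 for the log2 difference. Rel, the c-Rel subunit, averaged 3198 ± 149 in DKO and 3574 ± 925 in VAV, and Relb, of the alternative pathway, 163 ± 65.9 in DKO and 195 ± 27.1 in VAV (SD, n = 4 each).

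Of the 5 IκB genes, none passed in any of the 7 comparisons, and in DKO against VAV the log2 differences ran from -0.24 for Nfkbia to 0.16 for Nfkbid. Nfkbia, the feedback inhibitor that NF-κB induces, had 2121, 2574, 2809.6 and 2674 normalized counts in DKO, against 2350.0, 3849, 2301 and 3854 in VAV. The groups overlapped, with VAV split between 2 lower and 2 higher libraries. Its log2 difference was -0.24 ± 0.18 (SE; limma adjusted p = 0.534), with a 95% confidence interval from -0.62 to 0.13. Nfkbib and Nfkbie, which hold NF-κB in the cytoplasm, and Nfkbid and Nfkbiz, nuclear relatives that adjust its output, had log2 differences of -0.23, 0.06, 0.16 and -0.07.

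Among 5 other regulators of the pathway no gene passed. Tnfaip3, the ubiquitin-editing enzyme A20 that ends the signal, averaged 898 ± 186 normalized counts in DKO and 811 ± 271 in VAV (SD, n = 4 each). Tnfaip2, a target of tumour necrosis factor, averaged 2709 ± 553 in DKO and 3880 ± 589.7 in VAV (SD, n = 4 each; log2 difference -0.53 ± 0.18, SE; limma adjusted p = 0.173). Birc3, a ubiquitin ligase of the receptor complex, Traf1, an adaptor, and Irak3, a brake on Toll-like receptor signalling, had log2 differences of 0.21, 0.54 and -0.09 between DKO and VAV. CDK8KO replicate 3 was the highest of all libraries for Tnfaip3 (1640.4), Nfkbid (629), Nfkbie (608), Cd40 (488) and Cd83 (385 normalized counts).

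None of the 6 receptors and surface proteins passed. Cd40 and Cd83, surface molecules of antigen-presenting cells, averaged 333 ± 156 and 175 ± 72.8 normalized counts in DKO, against 192.5 ± 50.3 and 120.1 ± 58.2 in VAV (SD, n = 4 each). Tlr2, the receptor for bacterial lipoproteins, averaged 1006 ± 303 in DKO and 1380.0 ± 247 in VAV, and Icam1, the leukocyte adhesion molecule, 287 ± 34.7 in DKO and 246 ± 33.1 in VAV. Ccrl2, a chemokine-like receptor that binds chemerin without signalling, had 46.5, 80.5, 97.9 and 25.5 in DKO, 182, 37.4, 87.5 and 57.3 in CDK8KO, 53.7, 67.1, 83.3 and 65.4 in CDK19KO, 87.4, 62.7, 166 and 83.9 in VAV, and 78.2, 57.2 and 66.5 normalized counts in WT. These ranges overlapped throughout, and DKO against VAV gave -0.75 ± 0.44 (SE; limma adjusted p = 0.414).

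Cd14, the lipopolysaccharide co-receptor of monocytes and neutrophils, was chosen for a fuller account after its values were seen. It had 146, 161, 141 and 115 normalized counts in DKO, 72.8, 188, 48.2 and 138 in CDK8KO, 132, 111, 117 and 124 in CDK19KO, 143, 119.6, 101 and 146 in VAV, and 383, 249 and 329.9 in WT. Every library of the other 4 genotypes lay below every WT library. The log2 difference was -1.38 ± 0.32 for CDK19KO against WT (SE; limma adjusted p = 0.706) and -1.32 ± 0.32 for VAV against WT (limma adjusted p = 0.114). Neither passed, and both share the same 3 WT libraries.

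The genes of enzymes and of the inflammasome split. Ptgs2, the inducible cyclooxygenase COX-2 that makes prostaglandins (ENSMUSG00000032487; chromosome 1, 150100031 to 150108227, plus strand), had 4.98, 12.1, 10.5 and 12.0 normalized counts in DKO, 47.8, 33.7, 7.66 and 139 in CDK8KO, 45.1, 20.4, 36.5 and 47.1 in CDK19KO, 199.8, 19, 78.4 and 21 in VAV, and 23.2, 73.1 and 53.7 in WT. Each DKO library was below each VAV, CDK19KO and WT library, and among the others CDK8KO replicate 3 alone was within the DKO range. DKO averaged 9.90 ± 3.36 and VAV 79.5 ± 84.8 (SD, n = 4 each). The log2 difference, -2.30 ± 0.74, had the largest size among the 34 genes in DKO against VAV, yet with this spread it did not pass (SE; limma adjusted p = 0.144). With DESeq2 on the recovered reads it was -3.01 and passed (adjusted p = 0.00304), and without VAV replicate 1 limma gave -1.65 (adjusted p = 0.283).

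Acod1, whose enzyme makes the antimicrobial and anti-inflammatory metabolite itaconate (ENSMUSG00000022126; chromosome 14, 103046977 to 103056573, plus strand), had 268, 287, 375 and 183 normalized counts in DKO, 92.4, 163, 151 and 151 in CDK8KO, 188, 72.2, 95.5 and 99.9 in CDK19KO, 175, 229.7, 113 and 158 in VAV, and 332, 174 and 359 in WT. DKO lay above CDK8KO without overlap, and above CDK19KO except that DKO replicate 4 was just under CDK19KO replicate 1. Acod1 was higher in DKO than in CDK19KO by 1.33 ± 0.31 on the log2 scale (SE; limma adjusted p = 0.0305), with means of 278 ± 78.7 in DKO and 114 ± 50.8 in CDK19KO (SD, n = 4 each). It was 0.98 ± 0.31 against CDK8KO (limma adjusted p = 0.122) and 0.72 ± 0.31 against VAV (limma adjusted p = 0.268). The call against CDK19KO ended without DKO replicate 1, 2 or 3 or CDK19KO replicate 2, 3 or 4, and without the muscle-rich libraries (limma adjusted p = 0.0764). Sod2, the mitochondrial superoxide dismutase, and Nlrp3, the inflammasome sensor, differed by -0.10 ± 0.11 and -0.27 ± 0.21 in DKO against VAV (SE).

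Across the comparisons, DKO against VAV asked what loss of both kinases changes in mice that all carry Cre. Of the 34 genes, 1 was lower and none higher, where 0.694% of all genes were lower and 0.83% higher. Their median log2 difference was -0.08, beside -0.01 for all genes, and 10 of the 34 had an unadjusted p under 0.05, beside 15.7% of all genes. Libraries did not overlap for Ccl4 and Il6, which were higher in DKO (2 of 34, against 4.16% of all genes), and for Il1b, Ptgs2 and Rela, which were lower (3 of 34, against 4.33%).

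CDK8KO against VAV addressed loss of CDK8 alone in blood cells, and CDK19KO against WT loss of CDK19 alone. With limma none of the 34 genes passed in either, where 0.0% and 0.0215% of all genes did. An unadjusted p under 0.05 was reached by 1 of them in CDK8KO against VAV, beside 8.31% of all genes, and by 3 in CDK19KO against WT, beside 3.07%. edgeR called 0 of the 34 in both. DESeq2 also called none in CDK8KO against VAV (1 of all 13976 genes), and 1, Cd14, in CDK19KO against WT (15 of all genes). Median log2 differences were -0.12 for CDK8KO and -0.07 for CDK19KO. Csf1 was below VAV in every CDK8KO library (1 of 34, against 0.737% of all genes), and no gene of the 34 was above VAV in every one (against 1.02%); in CDK19KO all libraries were above WT for Nfkbid (1 of 34, against 3.56%) and below it for Cd14 (1 of 34, against 4.04%).

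VAV against WT compared mice with the transgene to mice without it. Any other difference between these mouse lines would be part of this comparison and was not tested. No gene of the 34 passed with limma, where 0.093% of all genes did (0.0716% higher and 0.0215% lower). Of the 34, 7 had an unadjusted p under 0.05, beside 14.8% of all genes. edgeR called 0 of them and DESeq2 called 2, Cd14 and Csf1, where it called 320 of all 13976 genes. The median log2 difference was 0.14, with 23 genes above 0 and 11 below. VAV libraries were all above WT for Csf1, Nfkb1 and Tnfaip2 (3 of 34, against 6.93% of all genes) and all below it for Birc3 and Cd14 (2 of 34, against 5.47%). Without the erythroid-rich libraries, Cd14 and Tnfaip2 passed with limma (2 of 34), where it called 1060 of all 13976 genes.

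DKO against CDK8KO and DKO against CDK19KO used the same DKO libraries. Against CDK8KO, which differs from DKO by Cdk19, Ccl3 was the 1 gene called of 34 (2.94%), where 1.7% of all genes were called. Against CDK19KO, which differs from DKO by Cdk8 and by the Cre transgene, 3 genes were called of 34 (8.82%), Ccl3, Acod1 and Il1rn, where 2.0% of all genes were called, and the effects of Cdk8 and of Cre cannot be told apart. All 4 calls were higher in DKO, a direction in which 1.05% and 1.34% of all genes were called; none was lower, where 0.651% and 0.658% of all genes were. In DKO against CDK8KO the balance over all genes depended on the tool, with 147 genes higher and 91 lower by limma, and 328 higher and 383 lower by DESeq2. DKO libraries did not overlap those of CDK8KO for Acod1 and Ccl3, both higher (2 of 34, against 3.63% of all genes), and for none was every DKO library lower (against 3.81%). They did not overlap those of CDK19KO for Ccl3, Il1rn and Il6, higher (3 of 34, against 7.27%), and for Cxcl2 and Ptgs2, lower (2 of 34, against 7.74%).

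**Figure D3:**
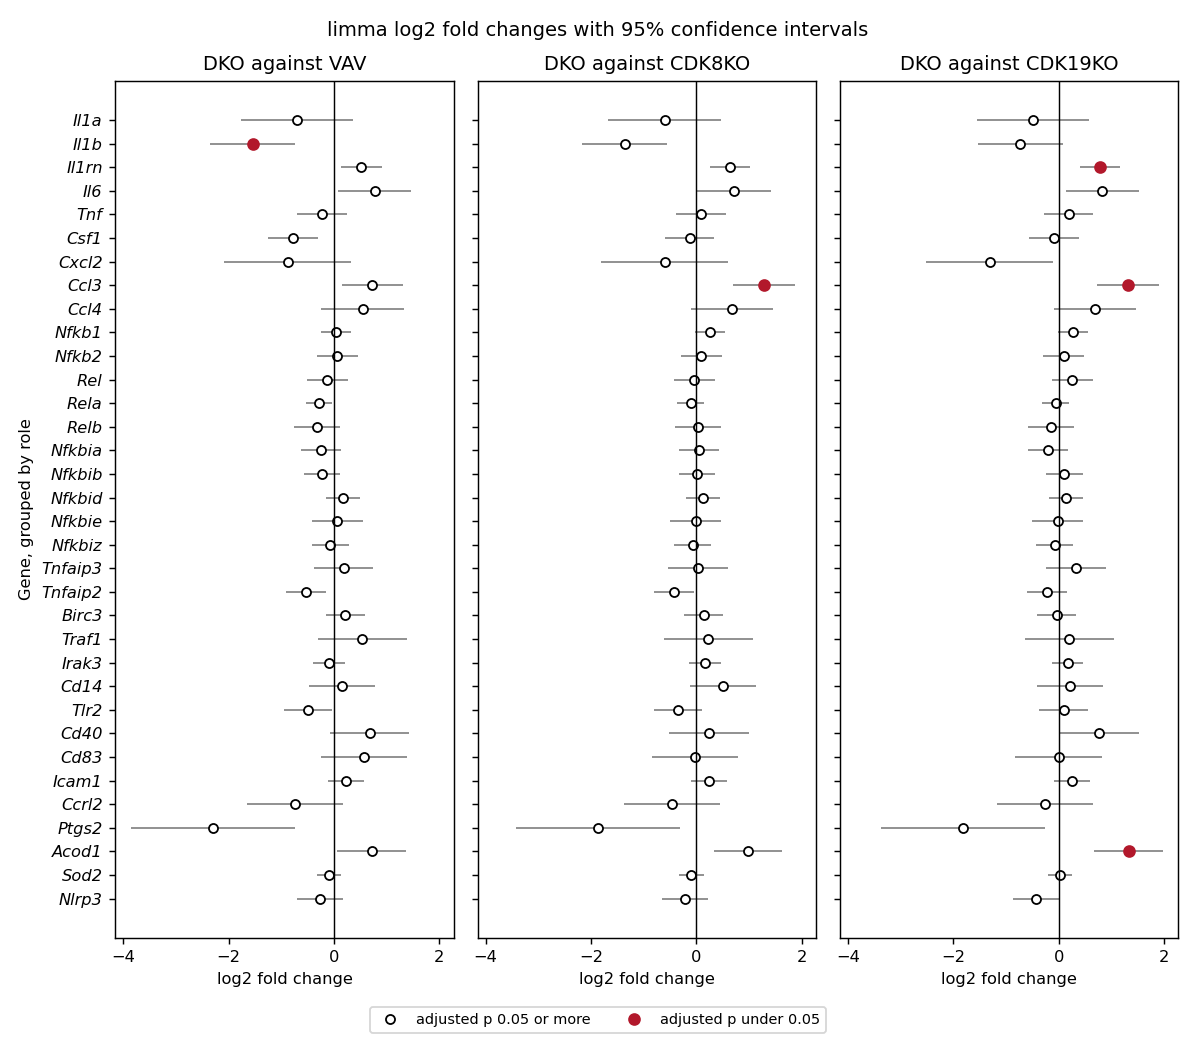
log2 fold change of the 34 genes with its 95% confidence interval, for DKO against VAV, CDK8KO and CDK19KO from left to right; filled red points have a limma adjusted p under 0.05. Il1b is filled on the left, Ccl3 in the middle, and Il1rn, Ccl3 and Acod1 on the right, while no subunit or inhibitor of NF-κB is filled in any of the 3 panels.

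The interaction of both genotypes, the DKO to CDK8KO difference less the CDK19KO to WT one, asked whether loss of Cdk19 went with another change where Cdk8 was deleted. Acod1 was called (2.34 ± 0.46 on the log2 scale, SE; limma adjusted p = 0.0446), 1 of 34 genes (2.94%), where 0.15% of all genes were called (0.093% positive and 0.0572% negative). Its log2 difference was 0.98 between DKO and CDK8KO and -1.36 between CDK19KO and WT (limma adjusted p = 0.122 and 0.745), so neither part passed by itself. DKO and CDK8KO carry Cre and CDK19KO and WT do not, so Cdk8 and the transgene cannot be told apart here either. The call was lost in 17 of 25 alternatives, among them without DKO replicate 1, 2 or 3, without any CDK8KO library, without CDK19KO replicate 2, 3 or 4 and without WT replicate 1 or 3, with limma adjusted p up to 0.185.

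The wider pathway was read from 111 further genes of receptors, adaptors, kinases, regulators and targets, of which 101 were tested. In DKO against VAV 1 rose and 2 fell (2.97%), where 1.52% of all genes were called. The median log2 difference of the 101 was -0.02. Nod1, a cytoplasmic sensor of bacterial cell walls, averaged 852 ± 59.1 normalized counts in DKO and 605 ± 41.8 in VAV (SD, n = 4 each; log2 difference 0.49 ± 0.12, SE; limma adjusted p = 0.0406). Txnip, a thioredoxin-binding protein that interacts with NLRP3, averaged 8586 ± 1130 in DKO and 13270 ± 1931 in VAV (-0.63 ± 0.14, SE; limma adjusted p = 0.0305), and Fpr1, the formyl peptide receptor of phagocytes, 2400 ± 649.8 in DKO and 4338 ± 956 in VAV (-0.86 ± 0.21, SE; limma adjusted p = 0.0446). All 3 calls were lost without some libraries. For Nod1 this was any 1 of the 8. Txnip lost its call without DKO replicate 1, 2 or 3 or VAV replicate 1, 2 or 4. Fpr1 lost it without DKO replicate 1, 3 or 4 or VAV replicate 1, 2 or 4. All 3 were also lost without the muscle-rich libraries and with only the compared groups in the fit, and Fpr1 with edgeR.

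Against CDK8KO, Nod1 (0.65), Cxcl16 (1.41) and Sigirr (1.15 on the log2 scale) were higher in DKO, with limma adjusted p of 0.00681, 0.0386 and 0.0448. Cxcl16 is a membrane-bound chemokine, and Sigirr a receptor that dampens interleukin-1 signalling. Calls against CDK8KO were 2.97% of the 101 genes, and those against CDK19KO, given next, 4.95%. Of all genes 1.7% and 2.0% were called. Against CDK19KO, Nod1 (0.61), Tlr4 (0.74), the lipopolysaccharide receptor, Cxcl16 (1.41) and Fpr2 (0.73), another formyl peptide receptor, were higher and Il18 (-0.79), an inflammasome-processed cytokine, was lower in DKO, with limma adjusted p from 0.00921 to 0.0401. Nod1 had 801, 893, 802 and 913 normalized counts in DKO, against 450.0, 574, 564 and 594 in CDK8KO and 633, 516, 475 and 614 in CDK19KO. The DKO libraries were above all of these, and its call against CDK19KO held under all 18 alternatives run. Its call against CDK8KO was lost with only the compared groups in the fit (limma adjusted p = 0.104). Cxcl16 lost its call against CDK8KO without any CDK8KO library or DKO replicate 2, 3 or 4, and against CDK19KO without any CDK19KO library or DKO replicate 2, 3 or 4. Sigirr lost it without any DKO library or CDK8KO replicate 1 or 2, and Tlr4 without DKO replicate 2 or 3 or any CDK19KO library. Il18 lost it without DKO replicate 1, 2 or 4 or any CDK19KO library, and Fpr2 without any 1 of the 8 libraries. Without the muscle-rich libraries both Cxcl16 calls and those of Sigirr, Il18 and Fpr2 were also lost. Sigirr also lost its call with edgeR, and Fpr2 with another scaling. With limma and edgeR none of the 101 genes passed in CDK8KO against VAV, CDK19KO against WT, VAV against WT or the interaction, where DESeq2 called 0, 2, 4 and 2. In these comparisons 6, 11, 21 and 20 of the 101 had an unadjusted p under 0.05, beside 8.31, 3.07, 14.8 and 8.64% of all genes. The 29 adaptors and kinases, IκB kinase subunits included, gave no call in any comparison. In DKO against VAV, Cxcl16 and Sigirr did not pass, although each DKO library was above each VAV library. Cxcl16 had 36.5 to 70.1 normalized counts in DKO and 14.3 to 33.1 in VAV. Sigirr had 93.5 to 152.9 in DKO and 50.5 to 70.5 in VAV. Not passing there either were Aim2, a DNA sensor (log2 difference 0.36), Tlr8, an RNA sensor (-0.53), and Trem1, an amplifier of myeloid inflammation (-0.37). Their limma adjusted p were 0.2, 0.188 and 0.238.

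Other transcripts also differed between the genotypes. Immediate early genes, which cells switch on within minutes of a stimulus or of handling, took 0.0171 to 0.0260% of reads in DKO and 0.0275 to 0.0652% in VAV, without overlap. All 8 of them were lower in DKO than in VAV and 3 passed (Dusp1, Egr1 and Fos; median log2 difference -0.79). VAV replicate 1, the highest library for Il1b, Ptgs2 and Cxcl2, also had the most Fos, 3480 normalized counts. The other VAV libraries had 936 to 1332 and the DKO libraries 300 to 585. That is 1 library, and whether Fos and these genes vary together across libraries was not tested. Monocyte and macrophage markers took 0.332 to 0.556% of reads in DKO and 0.222 to 0.466% in VAV, although 13 of 15 were lower in DKO and 1, Cd163, fell. Late neutrophil markers took 3.01 to 4.17% in DKO and 3.52 to 5.58% in VAV, and all 13 were lower in DKO, of which 2, Camp and Mmp8, fell. Markers of eosinophils, basophils and mast cells took 0.0469 to 0.102% in DKO and 0.0175 to 0.0282% in VAV, without overlap, and 8 of 12 rose. Against CDK19KO, where Ccl3, Il1rn and Acod1 were called, DKO libraries were without overlap above CDK19KO for the summed monocyte and macrophage markers (0.224 to 0.271% in CDK19KO). The list was split, however, with 8 of 15 markers higher in DKO and a median log2 difference of 0.08. Those that passed were Cd163, Ly6c2 and Mrc1, of which 1 was higher and 2 lower. Also without overlap, DKO libraries were below CDK19KO for immediate early genes (0.0293 to 0.0420% in CDK19KO) and for erythroid markers (0.130 to 0.405% in DKO and 0.527 to 1.42% in CDK19KO). Late neutrophil markers, at 2.84 to 3.76% in CDK19KO, overlapped, although Camp passed and was lower in DKO. Against CDK8KO, where Ccl3 was called, DKO libraries were without overlap above CDK8KO for the summed NK cell markers (0.00770 to 0.0106% in DKO and 0.00404 to 0.00740% in CDK8KO). Of these 4 markers 3 were higher in DKO, but the 1 that passed, Ncr1, was lower. The sums of monocyte and macrophage markers (0.176 to 0.440% in CDK8KO), late neutrophil markers (2.98 to 5.32%) and immediate early genes (0.0218 to 0.0479%) overlapped there. Single markers of these lists, Cd163, Camp, Mmp8 and Egr1, passed and were lower in DKO than in CDK8KO. Eosinophil, basophil and mast cell markers took 0.0128 to 0.0299% in CDK8KO and 0.0252 to 0.0335% in CDK19KO, both below DKO without overlap, and 10 of 12 rose in DKO against CDK8KO and 5 of 12 against CDK19KO. T cell markers took 0.0034 to 0.0105% of reads in DKO, overlapping VAV, CDK8KO and CDK19KO. All 7 were higher in DKO than in VAV and CDK19KO, and 5 of 7 than in CDK8KO. Of these Cd8a passed in each comparison. Among dendritic cell markers Cd209a passed and was lower in DKO than in VAV and CDK8KO. Against CDK19KO, Cd209a and Ccr9 passed, 1 higher and 1 lower. The part of all these transcripts in the differences of Il1b, Ptgs2, Il1rn, Ccl3 and Acod1 was not tested.

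**Figure D4:**
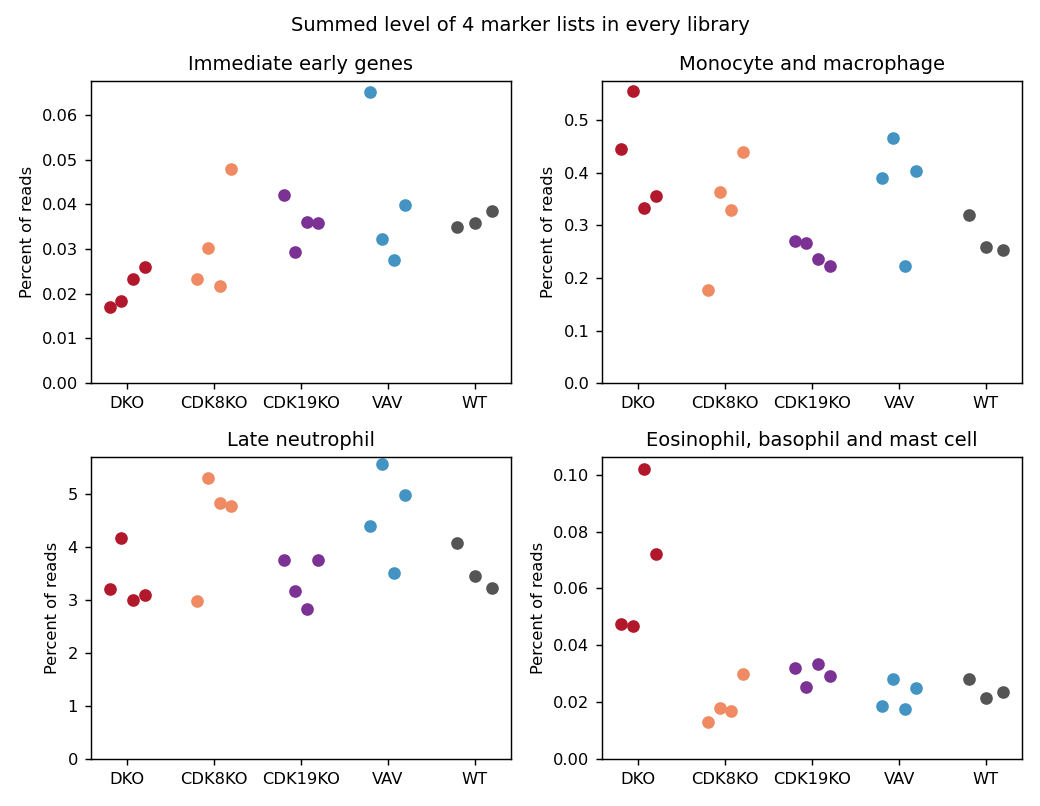
Summed share of reads (percent) of 4 marker lists in every library (points), by genotype. Immediate early genes are lower in all 4 DKO libraries than in any VAV or WT library, and eosinophil, basophil and mast cell markers are higher in DKO than in every other library, while monocyte and neutrophil markers overlap between DKO and VAV.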

How the data were processed

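Polyadenylated RNA of whole bone marrow was sequenced in 19 libraries of 5 genotypes (Kapa mRNA Hyper prep, NovaSeq X paired-end, per the labels' protocols). The deposited signal values are normalized counts per gene; the submitters' processing notes name Salmon 1.4.0, DESeq2 and mm10 without their roles. Dividing each column by what 1 read is worth gave whole reads for 100% of values (tolerance 0.001), and depths of 14881701 to 33010241. Floors of 3 counts cover counting error only. The confidence intervals of log2 differences come from the limma fit and reflect how much the libraries varied. No libraries of a genotype agreed within sampling noise (lowest chi-square per degree of freedom 15.6).

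Genes with a mean of 10 or more normalized counts (13976 of 34432) were tested with limma 3.58.1 (R 4.3.3), with a mean trend, on log2(normalized count + 1) in 1 fit over all libraries, and p-values were adjusted by Benjamini-Hochberg over all genes tested in each of 7 comparisons (threshold 0.05). The procedure was tested on simulated data. Alternatives used edgeR 4.0.16 and DESeq2 1.42.0 on the recovered reads, other scaling, pseudocount, filters and fits, and left out libraries. Coordinates and exon lengths came from GENCODE release 21 (mm10) and promoter sequences from RefSeq.

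Genes were described in full if they passed in any comparison or had 1 of the 8 largest log2 differences in DKO against VAV (9 genes); Cd14, Rela and Cxcl3 were added after their values were seen. The genes, pathway lists and marker lists were chosen with earlier results of these data known.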

Additional observations from a re-analysis of the deposited data

Results flagged for a closer look

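In 3 of 36 groups of 4 libraries, over the 9 genes described in full, 1 library lay far from the rest of its genotype (Dixon's test at its 95% critical value); chance alone gives about 1 such group in 20. Il6 was low in CDK19KO replicate 1, at 18.3 normalized counts, where the other 3 libraries had 26.2 to 27.5. Cxcl2 was high in CDK8KO replicate 4, at 158 (others 28.3 to 32.8), and in VAV replicate 1, at 190.0 normalized counts (others 31.9 to 46.2). Acod1 differed between backgrounds in the interaction: the DKO to CDK8KO difference exceeded the CDK19KO to WT one by 2.34 on the log2 scale (limma adjusted p = 0.0446).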

How the results depend on the processing

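Direction was followed for the limma calls and, in DKO against VAV, for the genes described in full by rule. None of these log2 differences changed direction under any alternative run. The balance over all genes in DKO against CDK8KO did, with 147 higher and 91 lower by limma, and 328 higher and 383 lower by DESeq2. In DKO against VAV, where limma called 1 of the 34 genes, DESeq2 called 2, and 0 were called with no filter on low values, with a minimum mean of 50, with a replicate block, with only the compared groups in the fit, and without the muscle-rich or the erythroid-rich libraries; leaving out 1 library gave 0 to 1. In DKO against CDK8KO (1 called) DESeq2 called 5, and 0 were called with only the compared groups in the fit or without the muscle-rich libraries; leaving out 1 library gave 0 to 2. In DKO against CDK19KO (3 called) 0 were called without the muscle-rich libraries, 2 with the replicate block, where Acod1 was lost (limma adjusted p = 0.0529), and 0 to 2 without 1 library. In the interaction (1 called) DESeq2 called 2, and 0 were called with no filter, the replicate block, only the compared groups, and without the muscle-rich or erythroid-rich libraries; leaving out 1 library gave 0 to 1. Where limma called none, DESeq2 called 1 in CDK19KO against WT and 2 in VAV against WT, and 2 were called in VAV against WT without the erythroid-rich libraries; CDK8KO against VAV gave 0 under every alternative run. The cause was not tested.

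Over all genes, limma and DESeq2 called 213 and 504 in DKO against VAV, 238 and 711 in DKO against CDK8KO, 279 and 601 in DKO against CDK19KO, 13 and 320 in VAV against WT, 3 and 15 in CDK19KO against WT, and 21 and 98 in the interaction. Without the muscle-rich libraries limma called 102, 92 and 97 in the first 3 of these, and with only the compared groups 99, 31 and 968. Without the erythroid-rich libraries it called 385 in DKO against VAV, 880 in DKO against CDK19KO and 1060 in VAV against WT. Of the 101 other pathway genes it then called 6, 13 and 13, against 3, 5 and 0 with all libraries.

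The replicate numbers did not pair the libraries: 6 of 36 same-numbered pairs correlated above 0.1 and 4 of 19 libraries correlated best with their own number. With the replicate block Il1b in DKO against VAV had a limma adjusted p of 0.0527. At this depth 3 reads are the least that can be read as a level, so no fold was given for Cxcl3.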
